A study of Mus musculus with 22 samples.

Results

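Mup20 encodes darcin, a major urinary protein that male mouse livers secrete, and its transcript split the 6 Slc10a1-/- livers of 8 weeks. In 2 of these 6 livers, replicates 3 and 4, the Mup20 level lay above that of the lowest wild-type (WT) liver of the same age, and in the other 4 it lay far below. The 2 livers, called Mup20-high KO here, are compared with the 4 WT livers of 8 weeks, so 6 of the 22 libraries of the series enter the comparison. The study sequenced liver mRNA of male C57BL/6 mice that were WT or Slc10a1-/- at 4 weeks (3 and 3 libraries), 8 weeks (4 and 6) and 20 months (3 and 3). All groups share the sex, the strain and the tissue. The labels name no Cre, transgene or treatment, and how the allele was made and whether WT livers came from littermates are not given in the sources used here. The labels number the replicates without saying that each is a separate animal, so p-values measure the spread between these samples.

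Slc10a1 encodes the sodium taurocholate cotransporting polypeptide (NTCP), the main uptake carrier for conjugated bile acids on the blood side of hepatocytes; without it, bile acids build up in the blood. Major urinary proteins are small lipocalins made in the liver under pulsatile growth hormone and androgen, with glucocorticoid and thyroid hormone acting as well, and they leave the body in urine, where they carry scents. Livers that lose the male growth hormone pattern express few of them and turn on genes typical of females.

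The rule used CPM, a gene's count scaled to the sum over all genes of its library. Mup20 (ENSMUSG00000078672, chr4:62050234-62054158, GRCm38) stood at 2187, 2387, 1296 and 1042 CPM in WT replicates 1 to 4. It stood at 3570 and 3681 CPM in the Mup20-high KO livers, and at 4.82, 4.98, 70.5 and 4.6 CPM in KO replicates 1, 2, 5 and 6. The lowest value inside the rule, 3570 CPM, and the highest outside, 70.5 CPM, lay on either side of the limit of 1042 CPM with no liver near it, and CPM scaled by trimmed mean of M-values (TMM) picked the same 2 livers. At 4 weeks 0 of 3 KO livers lay above the lowest WT liver of their age, and at 20 months 3 of 3 did. The lowest WT liver of 20 months, replicate 1, was at 273 CPM, with WT replicates 2 and 3 at 2033 and 1066 CPM. The KO livers of that age were at 1135, 1244 and 823 CPM, so replicate 3 lay below those WT replicates. Since the members were picked by a readout of these same libraries, the contrast of the 2 KO with the 4 WT livers is a description, given as fold changes with standard errors (SE) and no p-value. A gene is said to stand apart where both KO livers lie above, or both below, all 4 WT livers and the fitted change is at least 2-fold. Tests come only from groups set by the labels: all 6 KO against 4 WT at 8 weeks, and KO against WT at 4 weeks and at 20 months.

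**Figure D1:**
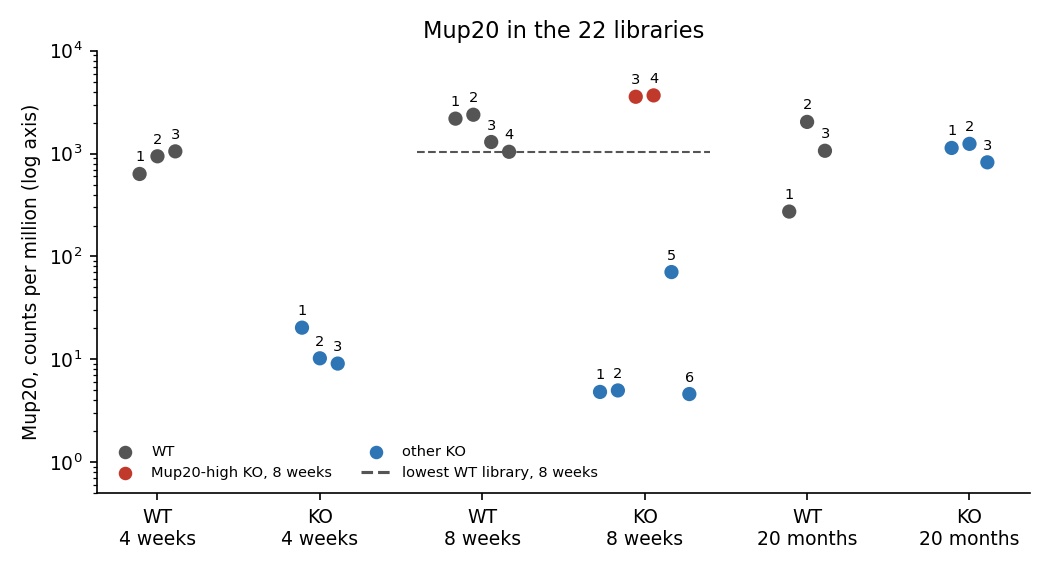
Mup20 level of each of the 22 libraries in CPM on a log axis, by age and genotype, with 1 point per library. At 8 weeks 2 KO livers sit above all 4 WT livers and 4 KO livers sit at or below 70.5 CPM.

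Counts assigned to genes were 18950112 to 26066897 in the 8-week libraries, so 3 counts, the limit that a count of 0 allows, correspond to 0.115 to 0.158 CPM (counting error only). At 4 weeks the libraries were shallower, with a limit of 0.431 to 0.546 CPM. One library stood apart within its group: WT replicate 1 of 8 weeks held transcripts of kidney. Kap, a kidney androgen-regulated protein, was at 163 CPM there, and 17 kidney genes (a list chosen after their values were seen) summed to 641 CPM, against 20.9 to 24.5 CPM in the other 3 WT and 22.7 and 21.4 CPM in the Mup20-high KO livers. Its major histocompatibility class II genes were high too, with H2-Aa at 53.4 CPM against 10.3 to 16.9 CPM in the other WT livers. Many results that rest on this library are given with and without it, but the genes followed at other ages were chosen with it included. The hepatocyte markers summed to 100468 to 110953 CPM in WT and to 105540 and 90601 CPM in the Mup20-high KO livers, so the liver label held in all 6. Macrophage markers (16 genes) summed to 538 to 773 CPM in WT against 530 and 500 CPM, lymphocyte markers (18) to 13.5 to 38.8 CPM against 16.8 and 16.6 CPM, and neutrophil markers (13) to 3.69 to 15.6 CPM against 4.45 and 3.39 CPM. Endothelial markers (18) summed to 977 to 1052 CPM in WT against 927 and 923 CPM, stellate cell markers (16) to 581 to 764 CPM against 528 and 690 CPM, and erythroid markers (12) to 185 to 239 CPM against 168 and 235 CPM. Cholangiocyte markers (17) summed to 182 to 297 CPM in WT against 274 and 229 CPM. In bulk tissue, fewer cells of a type and less RNA per cell cannot be told apart.

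The targeted transcript was low in both Mup20-high KO livers. Slc10a1 (ENSMUSG00000021135, chr12:80953183-80968705, minus strand) stood at 460, 463, 478 and 475 TMM-scaled CPM in the WT livers (mean 469 ± 8.96, SD, n = 4) and at 72.6 and 76.7 CPM in the Mup20-high KO livers. The other 4 KO livers ranged from 52.2 to 99.8 CPM and enclosed both values. All 6 KO livers thus lay below every WT liver, and residual reads remained in each. The change was -2.66 on the log2 scale (SE 0.08), a 6.31-fold lower level. Over all 6 KO against 4 WT it was -2.72 (SE 0.16, adjusted p = 9e-05, edgeR quasi-likelihood test). At 4 weeks it was -1.93 (adjusted p = 0.0117; 0.0532, 0.057 and 0.0549 without WT replicate 2, WT replicate 3 and KO replicate 3). At 20 months it was -1.49 (adjusted p = 0.821, 0.0104 with DESeq2, with the 3 KO livers at 109, 94.0 and 94.6 CPM and the WT livers at 160, 379 and 296 CPM). The Mup20 level therefore split the KO livers without splitting Slc10a1.

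The urinary protein genes lie in 1 cluster on chromosome 4 and, where a promoter window was matched, share stretches of it of unequal length. The windows from 250 bases before to 50 after the annotated start of 3 of them are shown because the family varied as a block across these livers; they come from RefSeq (GRCm38.p6), read on the minus strand, with the TATA motif TATATAA in capitals. The windows lie at chr4:61595783-61596082 (Mup17, the family member of high level in these livers), chr4:61674045-61674344 (Mup18, a member that stood apart) and chr4:62150792-62151091 (Mup21, a more diverged member).
Mup17: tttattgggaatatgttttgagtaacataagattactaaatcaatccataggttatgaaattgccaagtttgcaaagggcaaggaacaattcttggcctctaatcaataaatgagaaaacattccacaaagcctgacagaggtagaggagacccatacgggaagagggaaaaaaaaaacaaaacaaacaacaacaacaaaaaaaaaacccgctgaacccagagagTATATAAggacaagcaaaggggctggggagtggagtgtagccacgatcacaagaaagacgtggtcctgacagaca
Mup18: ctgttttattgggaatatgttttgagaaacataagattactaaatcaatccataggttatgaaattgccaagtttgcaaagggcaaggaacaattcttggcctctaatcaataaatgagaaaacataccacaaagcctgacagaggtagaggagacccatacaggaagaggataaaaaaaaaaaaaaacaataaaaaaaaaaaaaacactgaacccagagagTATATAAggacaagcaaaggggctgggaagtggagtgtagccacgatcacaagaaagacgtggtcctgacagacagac
Mup21: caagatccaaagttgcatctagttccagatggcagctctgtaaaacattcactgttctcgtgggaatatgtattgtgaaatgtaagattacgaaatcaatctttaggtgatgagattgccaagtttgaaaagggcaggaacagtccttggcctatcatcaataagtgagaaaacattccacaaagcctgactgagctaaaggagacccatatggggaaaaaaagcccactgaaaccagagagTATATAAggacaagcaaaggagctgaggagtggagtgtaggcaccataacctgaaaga
RefSeq windows matched 14 of the 22 family symbols, Mup20 not among them. The longest unbroken run shared with the Mup17 window was 99 bases in Mup18 and 28 in Mup21, and ranged from 26 to 178 bases over the matched members. TATATAA was found on either strand in 13 of 14 family windows (92.9%), against 1038 of 27025 genes (3.84%) and 0 of 24 windows of male-biased liver genes outside the family. The STAT5 motif TTCNNNGAA, sought on both strands, was found in 0 of 14 family windows, in 2582 of 27025 genes (9.55%) and in 4 of 24 male-biased genes. A match is a description of letters and no more.

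Of the 22 urinary protein symbols, 21 matched a gene and all 21 passed the filter on low counts. In 19 of the 21 (90.5%) both Mup20-high KO livers lay above all 4 WT livers, as they did for 12.8% of all 14626 genes fitted, and none had both below. Their median change was 0.86 on the log2 scale (0.97 without WT replicate 1), against -0.00 over all genes. Mup20 chose the livers and its relatives are near-copies whose reads the counting may split, so the counts describe the choice and support nothing. Summed over the family, WT livers held 26830, 29082, 21755 and 20867 CPM. The Mup20-high KO livers held 37036 and 40294 CPM, and the other KO livers 39.3 to 832 CPM. The chosen KO livers thus lay above the WT range, while the other KO livers lay far below it.

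Within the family 9 members stood apart, all higher, against 0.554% of all genes, and the fold was uneven. Mup18 was at 59.1, 52.2, 19.7 and 19.9 CPM in WT and at 95.8 and 102 CPM in the Mup20-high KO livers (1.38, SE 0.43). Mup16 was at 207, 222, 78.9 and 72.4 CPM in WT and at 321 and 438 CPM (1.38, SE 0.45). WT replicates 3 and 4 held the low values of both genes, below WT replicates 1 and 2. The other members past 2-fold were Mup12 (1.31), Mup8 (1.30), Mup9 (1.26), Mup20 (1.06), Mup19 (1.04), Mup4 (1.03) and Mup5 (1.03). Mup20 itself was at 0.93 without WT replicate 3 and 0.88 without WT replicate 4, and Mup4, Mup5 and Mup19 were likewise under 2-fold without either (0.67 to 0.92). Mup4 was also under it without KO replicate 4 (0.95), and Mup19 without KO replicate 3 (0.96). Mup17, at 7856, 7471, 5319 and 5324 CPM in WT, was at 10526 and 12326 CPM (0.81, SE 0.19). Mup3 differed least among the members with separate ranges named here, from 5264 to 6493 CPM in WT to 7336 and 7523 CPM (0.30). Mup10 overlapped, with WT replicate 2 at 1267 CPM above both KO livers at 1070 and 1223 CPM. At 4 weeks 17 members were testable and all 17 were called lower in KO, against 5.6% of all genes tested. At 20 months 19 were testable and 0 were called, as for all genes.

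Across all genes the Mup20-high KO livers lay nearer to WT than the other 4 KO livers did. The share of 14522 genes that differed at least 2-fold from the WT mean, on log2(CPM + 1) and each WT liver set against the other 3 WT, was 0.985%, 0.248%, 0.379% and 0.551% for WT replicates 1 to 4. For the Mup20-high KO livers it was 0.709% (replicate 3, 39 genes higher and 64 lower) and 1.38% (replicate 4, 50 higher and 151 lower). For KO replicates 1, 2, 5 and 6 it was 16.9%, 7.10%, 3.70% and 5.03%. KO replicate 4 was above all WT livers and KO replicate 3 within their range, and each of the other KO livers was above both. The upper end of the WT range, 0.985%, was WT replicate 1, the library with kidney transcripts; beside the other 3 WT livers, which reached 0.551%, both Mup20-high KO livers were above WT.

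**Figure D2:**
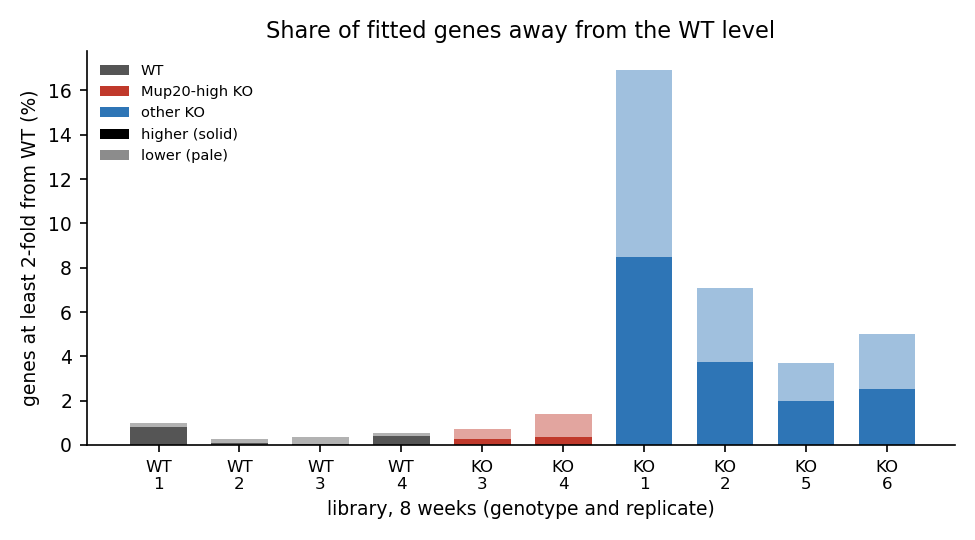
Percent of 14522 genes at least 2-fold above or below the WT mean in each 8-week library, as stacked bars from 0, each WT library set against the other 3 WT. KO replicates 3 and 4 (0.709% and 1.38%) sit below the other 4 KO bars (3.70% to 16.9%).

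Of 14626 genes fitted, 81 stood apart higher (0.554%) and 231 stood apart lower (1.58%) in the Mup20-high KO livers. Without WT replicate 1 there were 107 higher (0.744%) and 251 lower (1.74%) of 14389, of which 74 and 172 were in both counts. Among the 81 higher genes 16 were urinary protein genes or pseudogenes, 51 were protein coding and 28 had a mean under 1 CPM. Among the 231 lower genes 151 were protein coding and 102 had a mean under 1 CPM, as did 1944 of all genes fitted. The livers left out of the choice did not follow the same pattern for most of these genes. Of the 81 higher genes, all 4 other KO livers lay above every WT liver for 4, below every WT liver for 35, and overlapped WT for 42. Of the 231 lower genes, they lay below every WT liver for 29, above for 18 and overlapped for 184.

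**Figure D3:**
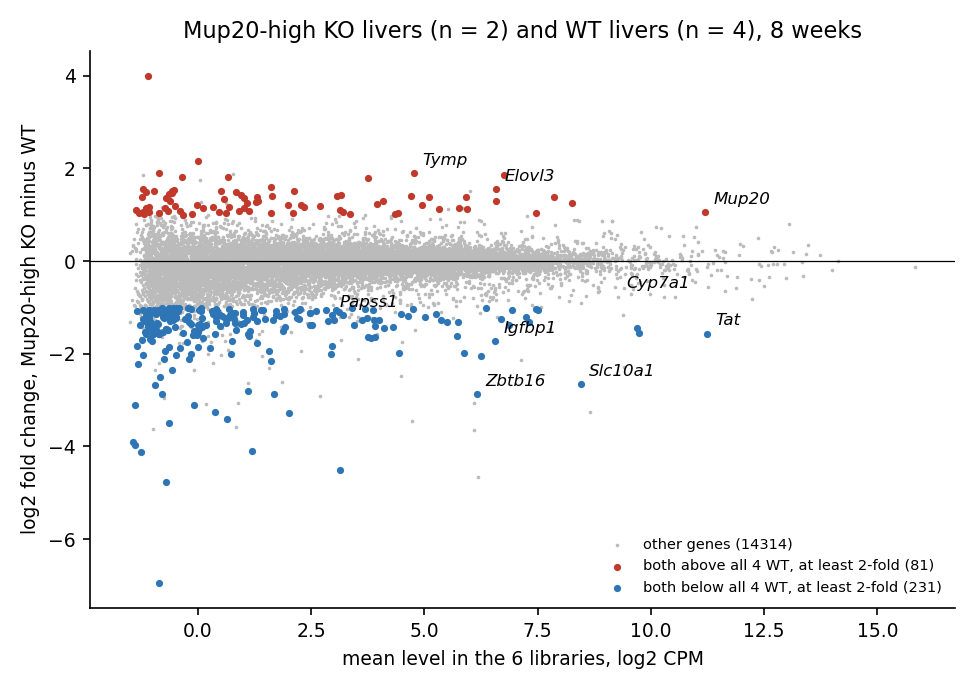
Fitted log2 fold change of the Mup20-high KO livers over WT against mean log2 CPM, with 1 point per gene and the genes that stand apart in colour. Slc10a1 lies at -2.66 and most of the lower genes lie toward the low end of the level axis.

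A few genes differed from WT in all 6 KO livers whatever their Mup20 level, and for these the test over the labelled groups applies. With edgeR over 6 KO and 4 WT livers and 14522 genes, 1 gene was called higher (0.00689%) and 3 lower (0.0207%); 1517 had an unadjusted p under 0.05, and DESeq2 called 110. The 4 genes were Tymp, Slc10a1, Gm17167 and Gm5859. Tymp (chr15:89371931-89377039), thymidine phosphorylase, which breaks down thymidine, was at 10.1, 11.9, 13.7 and 19 CPM in WT. It was at 41.7 and 60.6 CPM in the Mup20-high KO livers and 40.5 to 74.3 CPM in the other KO livers. No KO value overlapped WT, and the Mup20-high livers lay within the range of the others. The change was 1.89 (SE 0.23) in the Mup20-high livers and 1.99 over all 6 (SE 0.23, adjusted p = 0.0156). The call was lost without WT replicate 1 (adjusted p = 0.0852), WT replicate 2 (0.106), WT replicate 3 (0.135), KO replicate 5 (0.0613) or KO replicate 6 (0.0601), in each of which the change was 1.86 to 1.99. At 4 weeks the KO livers, at 112, 54.3 and 79.6 CPM, overlapped WT at 126, 35.5 and 63.3 CPM (0.13, adjusted p = 0.871), and at 20 months the change was 0.78 (adjusted p = 0.821).

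The other 2 called genes, Gm17167 and Gm5859, are predicted genes that lie next to each other on chromosome 4, at 42206998 to 42235313 and 42236859 to 42239182. Gm17167 was at 2.07, 2.13, 2.07 and 1.98 CPM in WT, at 0.171 and 0.212 CPM in the Mup20-high KO livers and at 0.045 to 0.364 CPM in the others (adjusted p = 0.0119). Gm5859 was at 0.652 to 0.888 CPM in WT and at 0.128 CPM and 0 in the Mup20-high KO livers (adjusted p = 0.0345). The Gm17167 call was lost without WT replicate 1, 2 or 3 or KO replicate 5 (adjusted p 0.0533 to 0.0812), and that of Gm5859 without any of the WT replicates or without KO replicate 1, 2, 5 or 6 (0.064 to 0.2002). Gm42427 (chr5:44137980-44143271), also predicted, was at 75.2, 74.1, 129 and 115 CPM in WT, at 22.7 and 24.8 CPM in the Mup20-high livers and at 3.6 to 20.1 CPM in the others; it missed the threshold (-2.63, adjusted p = 0.201; 0.0251 without KO replicate 2 and 1.97e-06 with DESeq2). All 3 were named after their values were seen. In all, 31 genes (0.213%) had all 6 KO livers above, and 38 (0.262%) all below, all 4 WT livers with at least 2-fold over all 6. Of these 3 lay on chromosome 12, Slc10a1 itself among them. The fold limit did not apply to the Mup20-high livers alone. Of genes standing apart higher in those livers, 4 had all other KO livers above every WT liver too. Of those standing apart lower, 29 had all below. At most 4 of the 31 and 29 of the 38 thus reached 2-fold there. Tymp and Slc10a1 did, whereas Sparcl1 (higher) and Kif26b (lower) did not. Both counts, 31 and 38, include WT replicate 1. Kcnj15 and Ugt1a7c are among the 38. Without that library their changes in the Mup20-high livers went from -4.51 to -1.22 and from -1.08 to -0.68. For Sult2a2 and Cyp2b13, both higher, the Mup20-high livers held at most 0.171 CPM, near the depth limit, and the other KO livers far more. Of the 92 other fitted genes within 5 Mb of Slc10a1, 2 stood apart in the Mup20-high livers, both lower. Over all genes 0.554% stood apart higher and 1.58% lower. The 2 genes were Jdp2 (-1.24) and Map3k9 (-1.23). In the other KO livers Jdp2 lay above all WT livers and Map3k9 overlapped WT.

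Papss1 and Wdfy1 belong to the same pattern by their values, without a call. Papss1 (chr3:131564768-131643671) makes PAPS, the sulfate donor of all sulfotransferases, as Papss2 also does. Papss1 was at 8.91, 10.6, 9.96 and 6.82 CPM in WT, at 3.89 and 4.23 CPM in the Mup20-high KO livers and at 4.31 to 5.31 CPM in the other KO livers. All 6 KO values lay below all 4 WT values, and the Mup20-high pair was the lowest. The change was -1.16 (SE 0.19) in the pair and -1.0 over all 6, with an adjusted p of 0.101 in edgeR (0.0457 without WT replicate 4) and 1.97e-06 in DESeq2. It was -0.77 at 4 weeks (adjusted p = 0.308) and -0.25 at 20 months (adjusted p = 0.8286). Papss2, at a far higher level, did not share the pattern. It was at 218 to 270 CPM in WT and 179 and 231 CPM in the pair, overlapping WT (-0.30, SE 0.13). The other KO livers held 272 to 505 CPM of Papss2, above all WT livers. Wdfy1, an endosomal adaptor of Toll-like receptor signalling, was at 12.2, 27.4, 13.0 and 12.2 CPM in WT, at 41.4 and 43.9 CPM in the Mup20-high KO livers and at 30.03 to 36.9 CPM in the others. WT replicate 2 stood alone above the other WT livers and below every KO liver. The change was 1.4 (SE 0.30) in the pair and 1.17 over all 6 (adjusted p = 0.474; 0.00893 without WT replicate 2; DESeq2 0.00311).

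**Figure D4:**
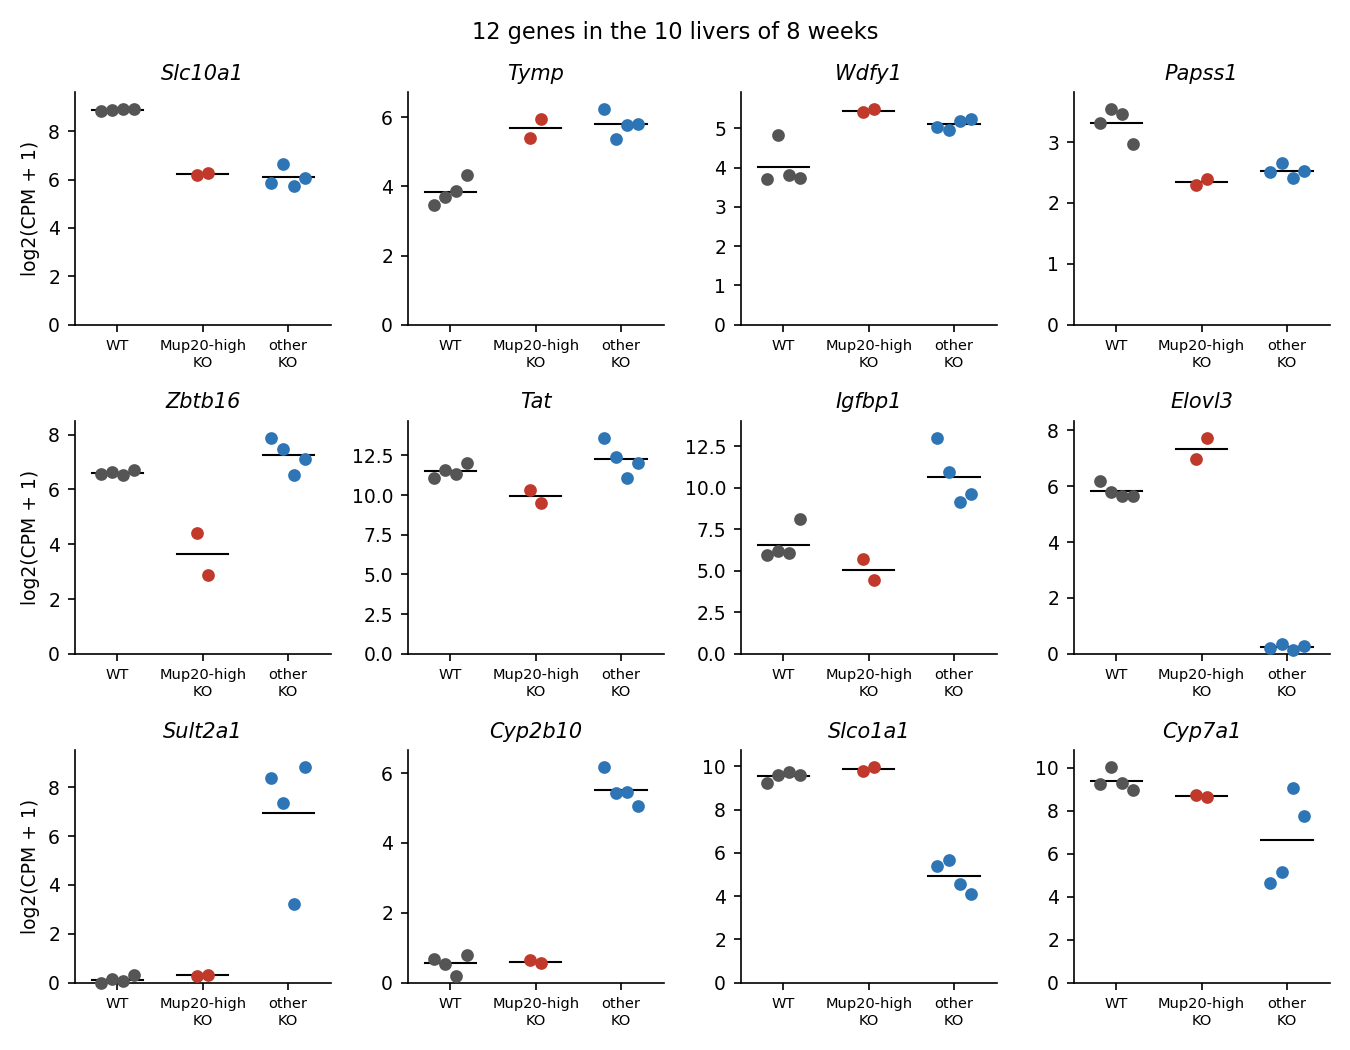
log2(CPM + 1) of 12 genes in each 8-week library, grouped as WT, Mup20-high KO and other KO, with 1 point per library and a line at each group's mean. Slc10a1, Tymp, Wdfy1 and Papss1 separate all KO from WT livers, whereas Sult2a1, Cyp2b10 and Elovl3 separate the other KO livers from both WT and the Mup20-high pair.

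None of the 19 bile acid synthesis genes stood apart in the Mup20-high KO livers, and the list's median change was 0.13. Cyp7a1, the rate-limiting enzyme of the classical pathway, was at 593, 1034, 625 and 503 CPM in WT and at 418 and 395 CPM in the Mup20-high KO livers. Both lay below all WT livers, at -0.77 (SE 0.26), with the other KO livers at 23.9 to 534 CPM. Cyp7b1, the hydroxylase of the alternative pathway and a male-biased gene, was at 449, 546, 425 and 272 CPM in WT against 699 and 860 CPM (0.88, SE 0.23). The other KO livers held 5.18 to 9.03 CPM of it. Cyp8b1, which makes the cholic acid branch, was at 267, 323, 427 and 242 CPM in WT and at 396 and 428 CPM, overlapping WT (0.38, SE 0.20). In the list 5 of 19 genes had both KO livers above all WT livers and 4 both below, against 12.8% and 10.4% of all genes.

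Most receptors and transporters of bile acids differed little from WT. Nr0b2, the repressor SHP that the bile acid receptor FXR induces, was at 3.12, 3.61, 4.35 and 4.88 CPM in WT and at 5.05 and 4.24 CPM in the Mup20-high KO livers (0.21, SE 0.20). In the other KO livers it was at 5.70 to 20.2 CPM. Abcb11, the canalicular bile salt export pump, was at 586, 658, 519 and 577 CPM in WT against 622 and 783 CPM (0.26, SE 0.12). Slco1a1, a sinusoidal organic anion carrier, was at 594, 777, 853 and 781 CPM in WT against 867 and 990 CPM (0.30), where the other KO livers held 16.4 to 49.8 CPM. Slc51b, a subunit of the basolateral export carrier, was at or under 0.217 CPM in all 6 livers. Slco1a4, another sinusoidal organic anion carrier, was at 18.7, 57.9, 61.4 and 85.5 CPM in WT against 25.0 and 38.7 CPM (-0.81, SE 0.49). It overlapped WT only through WT replicate 1, the library with kidney transcripts. None of the 21 fitted transport genes other than Slc10a1 stood apart (1 lower without WT replicate 1), with a median of -0.04. Among 16 signalling genes 2 stood apart, both lower, against 1.58% of all genes. They were Cdkn1a, a cell cycle inhibitor (-1.43, or -0.90 without WT replicate 4), and Egr1, an early response factor (-1.28, or -0.88 without KO replicate 4).

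Sulfation genes, which the title of the series points to, differed little from WT in the pair, with a list median of -0.15. Papss1 was the 1 of 14 fitted genes that stood apart, lower as for 1.58% of all genes. Both KO livers were above all WT livers for 2 of the 14, Sult2a8 and Slc35b3, against 12.8% of all genes. Sult2a1, a bile acid sulfotransferase of the female-biased kind, was at 0, 0.102, 0.0506 and 0.242 CPM in WT and at 0.214 and 0.254 CPM in the Mup20-high KO livers. The other KO livers held 8.44 to 448 CPM. Sult1e1, the oestrogen sulfotransferase, was at 0.356 to 0.888 CPM in WT, at 0.898 and 0.296 CPM in the pair and at 20.5 to 478 CPM in the others. Sult2a8, a bile acid sulfotransferase of male liver, was at 788, 911, 931 and 843 CPM in WT against 969 and 1254 CPM (0.35, SE 0.12), with 135 to 378 CPM in the others. The pair therefore showed neither the high Sult2a1 and Sult1e1 nor the low Sult2a8 of the other KO livers. At 4 weeks Sult2a1 (10.83, adjusted p = 0.0125; 0.0618 and 0.0658 without WT replicates 2 and 3) and Sult1e1 (8.89, adjusted p = 0.000258) rose in KO. The Sult2a genes are close copies, so their counts are uncertain.

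Of 24 target genes of the xenobiotic receptors CAR and PXR none stood apart, with a median of -0.05. Cyp2b10, the classical CAR target, was at 0.616, 0.457, 0.152 and 0.727 CPM in WT and at 0.556 and 0.4658 CPM in the Mup20-high KO livers, against 32.5 to 70.8 CPM in the other KO livers. Cyp3a11, a PXR target, was at 1919, 2259, 2232 and 1737 CPM in WT and split the pair, at 1356 and 3379 CPM (0.21, SE 0.30). Of 20 glucuronidation genes 1, Ugt1a7c, stood apart lower (-1.08), against 1.58% of all genes, and it no longer did without WT replicate 1 (-0.68).

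Male-biased liver genes lay high in the Mup20-high KO livers and female-biased genes low. These genes follow the same hormones as Mup20, so their direction is not independent of the choice. In 21 of 31 male-biased genes (67.7%) both KO livers were above all WT livers and in none both were below, with a median of 0.47. Over all genes 12.8% were above in this way. Elovl3, Ces4a and Hsd3b5, 3 of the 31, stood apart, against 0.554% of all genes. Elovl3, a fatty acid elongase, was at 72.2, 55.0, 49.6 and 48.8 CPM in WT and at 123 and 210 CPM in the pair (1.55, SE 0.22). The other KO livers held at most 0.270 CPM. Hsd3b5, a steroid reductase of male liver, was at 116, 161, 141 and 88.2 CPM in WT against 178 and 342 CPM (1.03; 0.99, 0.89 and 0.49 without WT replicate 1, WT replicate 4 and KO replicate 4). Cyp4a12a, a fatty acid hydroxylase induced by androgen, was at 160, 229, 187 and 153 CPM in WT against 322 and 312 CPM (0.79), and Ces4a, a carboxylesterase, at 2.91 to 5.29 CPM against 8.81 and 10.8 CPM (1.18). For all 4 genes WT and pair did not overlap, and the other KO livers lay below both.

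In 6 of the 21 fitted female-biased genes both KO livers were below all WT livers, in none above, and the median was -0.64; over all genes 10.4% were below. Cux2, a female-specific repressor of male-biased genes, was at 0.580, 4.93, 1.11 and 4.76 CPM in WT and at 0.385 and 0.424 CPM in the pair (-2.79). WT itself ranged widely, with replicates 1 and 3 near the KO values and replicates 2 and 4 high, and the other KO livers held 28.6 to 55.2 CPM. Atp6v0d2, a proton pump subunit, was at 3.84, 3.30, 2.73 and 5.61 CPM in WT against 0.855 and 0.889 CPM (-2.16). Fmo2, an oxygenase, was at 31.6 to 81.9 CPM in WT against 20.8 and 20.3 CPM (-1.28; -0.93 without WT replicate 4). These 3 of 21 stood apart lower, against 1.58% of all genes, and 7 of 21 did without WT replicate 1, against 1.74%. Esr1, the oestrogen receptor, was at 33.4, 51.8, 39.0 and 56.5 CPM in WT against 22.3 and 18.9 CPM (-1.14). With Cux2 and Igfbp1 (-1.73, or -0.90 without WT replicate 4) it made up the 3 of 20 growth hormone axis genes that stood apart. All 3 were lower, as were 1.58% of all genes. Without WT replicate 1, 4 of the 20 stood apart lower and 1 higher, against 1.74% and 0.744% of all genes. At 4 weeks, where Mup20 was low in all 3 KO livers, 20 of 27 testable male-biased genes fell and 0 rose in KO, and 12 of 24 female-biased genes rose and 1 fell. Over all 11144 genes tested at that age 5.17% were called higher and 5.6% lower.

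Most of a list of genes that glucocorticoids and fasting induce in liver lay low in the Mup20-high KO livers. This list of 30 genes was assembled after their values were seen, so its count is a description. In 19 of 30 (63.3%) both KO livers lay below all WT livers, 12 stood apart lower and none higher, and the median was -0.87 (-0.91 without WT replicate 1). Over all genes 10.4% lay below in this way and 1.58% stood apart lower. Zbtb16, a transcriptional repressor that glucocorticoid induces, was at 94.6, 97.5, 91.3 and 104 CPM in WT and at 20.1 and 6.35 CPM in the pair (-2.87, SE 0.39). The other KO livers, at 91.5 to 233 CPM, did not share the low level. Tat, tyrosine aminotransferase, a classical glucocorticoid target and a hepatocyte marker, was at 2130, 3072, 2572 and 4236 CPM in WT and at 1299 and 732 CPM (-1.57, SE 0.32). The other KO livers, at 2118 to 12246 CPM, overlapped or exceeded WT. Lpin1, a phosphatidate phosphatase, was at 863, 975, 928 and 1294 CPM in WT against 572 and 174 CPM (-1.45; -0.83 without KO replicate 4).

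In most of the 12 genes KO replicate 4 was the lower of the pair. Ddit4, an inhibitor of mTORC1, was at 24.7, 25.9, 19.2 and 40.8 CPM in WT against 11.4 and 2.71 CPM (-1.98, SE 0.51). Mfsd2a, a lysolipid carrier induced by fasting, was at 49.0, 60.6, 67.0 and 123 CPM in WT against 30.5 and 7.37 CPM (-1.99). Tsc22d3, the glucocorticoid-induced leucine zipper, was at 114, 143, 123 and 115 CPM in WT against 72.7 and 31.5 CPM (-1.25; -0.77 without KO replicate 4). Ppp1r3c, a glycogen-targeting subunit, went the other way within the pair, at 15.3 and 28.1 CPM against 35.9 to 89.5 CPM in WT (-1.61), and Ppargc1a, a coactivator of gluconeogenic genes, was alike in both at 11.4 and 12.5 CPM against 22.2 to 34.2 CPM (-1.15). For Igfbp1, an insulin-suppressed binding protein, 1 WT liver set much of the change. It was at 61.6, 70.7, 67.2 and 273 CPM in WT against 50.9 and 20.7 CPM (-1.73; -0.90 without WT replicate 4), and Cdkn1a behaved alike (-1.43; -0.90). Pck1 (-0.58), also in the list, lay below all WT livers without reaching 2-fold. Of the 30 genes 11 overlapped WT. Among these were Fkbp5 (-0.57), Angptl4 (-0.22), Klf9 (-0.09), Cpt1a (-0.08), G6pc (0.17) and Irs2 (0.53). Time of death and feeding state are not given in the sources used here and their part in the result was not tested.

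**Figure D5:**
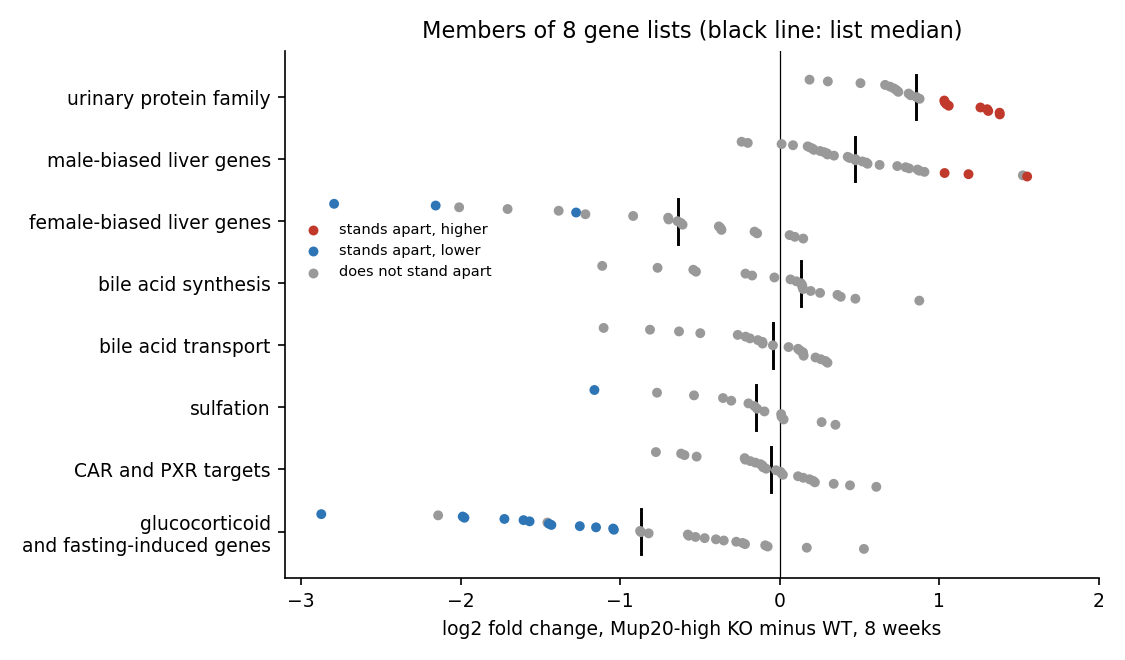
Fitted log2 fold change of the Mup20-high KO livers over WT for each fitted gene of 8 lists, with 1 point per gene and the list's median as a line. The urinary protein family (0.86) and male-biased genes (0.47) lie above 0, the glucocorticoid and fasting genes (-0.87) and female-biased genes (-0.64) below, and the bile acid lists near 0. The glucocorticoid and fasting list was assembled after its values were seen, and the family includes Mup20, which chose the livers.

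Clock genes bear on the time at which livers were taken. Of 18 circadian genes 8 (44.4%) had both KO livers below all WT livers and 3 (16.7%) both above, against 10.4% and 12.8% of all genes, and the median was -0.21. Per1, a repressor of the clock that glucocorticoid also induces, was at 51.8, 61.3, 56.6 and 67.5 CPM in WT and at 36.8 and 28.3 CPM in the pair (-0.87, SE 0.14). Ciart, another repressor, was at 27.0, 33.7, 28.5 and 29.8 CPM in WT against 19.5 and 10.9 CPM (-0.97, SE 0.21). Clock itself, an activator, was at 55.1 to 68.7 CPM in WT against 80.7 and 86.0 CPM (0.43). Of the 18, Nr1d1 and Bhlhe41, also repressors, stood apart with all WT livers included, both higher, against 0.554% of all genes. Without WT replicate 1, 2 of the 18 also stood apart lower, against 1.74% of all genes. They were Ciart (-1.02) and Nfil3 (-1.11, or -0.94 with all WT livers). Nr1d1 (REV-ERB alpha) was at 24.1, 20.6, 25.5 and 15.8 CPM in WT and at 26.6 and 85.7 CPM in the pair (1.38; 0.31 without KO replicate 4), so its size rested on 1 liver. Bhlhe41 was at 3.55, 2.54, 2.73 and 1.29 CPM in WT against 5.22 and 9.32 CPM (1.51, SE 0.35). Arntl (BMAL1), which peaks opposite to Dbp, was at 1.56, 1.42, 1.52 and 2.62 CPM in WT against 2.44 and 1.78 CPM, overlapping, while the other KO livers held 4.13 to 46.8 CPM. Dbp, an output gene of the clock, was at 52.4, 49.3, 66.1 and 39.6 CPM in WT and at 52.1 and 67.5 CPM in the pair, against 1.22 to 34.3 CPM in the others. Arntl and Dbp of the pair were thus near WT, and those of the other KO livers lay outside it, Arntl above and Dbp below. Whether sampling time moved with the Mup20 level was not tested.

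Further genes that stood apart higher had diverse roles. Arrdc3, an arrestin-domain protein, was at 69.5, 53.9, 61.3 and 37.6 CPM in WT and at 109 and 297 CPM (1.86; 0.97 without KO replicate 4). Gbp11, an interferon-inducible GTPase, was at 11.5, 5.18, 6.17 and 5.33 CPM in WT against 28.4 and 20.9 CPM (1.79, SE 0.30), with WT replicate 1 alone high among WT. Serpine2, a protease inhibitor, was at 5.36, 6.60, 4.10 and 4.52 CPM in WT against 12.2 and 15.2 CPM (1.41). Serpina12 (vaspin), at 31.4, 34.3, 31.8 and 13.9 CPM in WT, was at 71.1 and 50.2 CPM (1.12; 0.89 without WT replicate 4, 0.83 without KO replicate 3), where the other KO livers held at most 0.734 CPM. Ces2b, a carboxylesterase (1.61; 0.92 without KO replicate 4), Prok1, a prokineticin (1.41; 0.97), and Fam198a (1.39) had means below 10 CPM in both groups. Oasl1, an interferon-induced regulator, was at 6.30, 5.84, 6.32 and 5.73 CPM in WT and at 13.8 and 12.3 CPM (1.10). It was the 1 of 27 interferon genes that stood apart, higher as for 0.554% of all genes. In 10 of the 27 (37.0%) both KO livers were above all WT, against 12.8% of all genes, with a list median of 0.16.

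Several of the lower genes rest on the WT library with kidney transcripts. Kcnj15, a potassium channel of kidney, changed from -4.51 to -1.22 when WT replicate 1 was left out, Slc13a1, a renal sulfate carrier, from -4.11 to -1.51, Gcnt1, a glycosyltransferase, from -3.27 to -1.07, and Kcnj16 from -2.02 to -1.04. Dnase1, an enzyme abundant in kidney, went from -1.94 to -0.51 and no longer stood apart. Of 16 macrophage markers 9 (56.2%) had both KO livers below all WT livers, against 10.4% of all genes, and none stood apart. Cd5l, a macrophage secreted protein, was at 147, 107, 92.3 and 124 CPM in WT against 75.0 and 86.1 CPM (-0.56; -0.43 without WT replicate 1), and Clec4f, a Kupffer cell lectin, at 114 to 131 CPM against 107 and 102 CPM (-0.25). Lymphocyte and neutrophil genes had few counts behind them. Cd3e, of the T cell receptor complex, was at 1.09, 0.406, 0.607 and 0.484 CPM in WT against 0.0855 and 0.254 CPM (-1.93; -1.53 without WT replicate 1). Ngp, a neutrophil granule protein, was at 1.38, 0.356, 0.253 and 0.525 CPM in WT and listed at 0 in both KO livers, where 3 counts would be 0.132 to 0.133 CPM. Of the neutrophil markers 4 of 7 fitted stood apart lower, but 1 of 4 without WT replicate 1. Of the lymphocyte markers 2 of 13 did, and 1 of 12 without it. Over all genes 1.58% stood apart lower, and 1.74% without WT replicate 1. H2-Aa was at 8.81 and 9.10 CPM in the pair, below the lowest WT liver at 10.3 CPM (-1.42; -0.63 without WT replicate 1). Slc4a1, the red cell anion exchanger, was at 1.06 to 2.13 CPM in WT against 0.342 and 1.06 CPM (-1.33; -0.75 without KO replicate 3). Tcf24, a transcription factor, was at 1.59, 1.27, 5.21 and 8.72 CPM in WT against 0.727 and 0.424 CPM (-2.87), with WT replicates 3 and 4 high.

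No gene stood apart, with all WT libraries included, among 24 of cholesterol synthesis (median -0.21), 20 of fatty acid synthesis (-0.11), 30 of fatty acid oxidation and PPAR-alpha targets (0.19), 27 of the acute phase (-0.56), 18 of fibrosis (-0.19), 24 of the cell cycle (-0.19) and 23 of endoplasmic reticulum stress (0.10). In 9 of the 30 fatty acid oxidation genes (30%) both KO livers were above all WT livers and in none both below, among them Plin2, a lipid droplet coat protein, at 198 to 277 CPM in WT against 499 and 378 CPM (0.88, SE 0.15). In 5 of the 18 fibrosis genes (27.8%) both were below and in none above, among them the collagen gene Col1a2 at 30.9 to 50 CPM against 21.9 and 28.0 CPM (-0.63; -0.47 without WT replicate 1). Acute phase genes overlapped WT, which was itself split. Orm2, an acid glycoprotein, was at 125, 133, 5.11 and 113 CPM in WT and at 11.1 and 4.15 CPM in the pair (-3.64, SE 1.13), and Saa2, a serum amyloid, at 668, 735, 14.7 and 798 CPM against 108 and 7.28 CPM (-3.27). For both genes WT replicate 3 lay with the pair and the other 3 WT livers high. No gene stood apart among 15 pericentral (0.03) or 16 periportal (-0.03) hepatocyte genes. Of 22 NRF2 target genes 1 stood apart lower, against 1.58% of all genes. It was Cbr3, a carbonyl reductase at 0.0847 to 0.725 CPM in these livers (-1.35, or -0.71 without KO replicate 4).

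The genes that stood apart were followed at the other ages, where the libraries are independent of the choice. At 4 weeks 11144 genes were tested, and edgeR called 576 higher (5.17%) and 624 lower (5.6%) in KO. Of the 81 higher genes 27 were testable there, 0 were called higher and 14 were called lower (51.9%). Leaving out the urinary protein genes, 7 of 20 were called lower (35.0%), among them Elovl3 (-8.23, adjusted p = 0.00015), Hsd3b5, Serpina12 and Oasl1 (-1.79, adjusted p = 0.0412; 0.0529 to 0.181 without any 1 library). Of the 231 lower genes 77 were testable at 4 weeks: 11 were called higher (14.3%), among them Cux2, Atp6v0d2, Ppargc1a and Igfbp1 (3.58, adjusted p = 0.00434), and 8 lower (10.4%), among them Slc10a1, Tcf24, Ppp1r3c and Tsc22d3. Cux2 lost its call without WT replicate 2, WT replicate 3 or KO replicate 3 (adjusted p 0.0684 to 0.1253), and Tcf24 without each of 4 libraries: WT replicates 1 to 3 and KO replicate 3 (0.0677 to 0.111). Tsc22d3 lost it without WT replicate 2 or KO replicate 3 (0.0598 and 0.0504), and Ppp1r3c without WT replicate 2, WT replicate 3 or KO replicate 2 (0.0869, 0.0812 and 0.0505). Elovl3, Hsd3b5, Cux2, Atp6v0d2, Ppargc1a and Igfbp1 thus lay on opposite sides of WT in the 4-week KO livers and the 8-week pair, and Tsc22d3 and Ppp1r3c on the same side; the difference between ages was not tested. At 20 months edgeR called 0 of 13966 genes higher (0%) and 0 lower (0%), with 772 at an unadjusted p under 0.05 and 49 called by DESeq2. Of the higher genes 59 were testable there (median 0.26) and of the lower genes 145 (median -0.36), and Elovl3 (0.79, adjusted p = 0.871) and Zbtb16 (0.62, adjusted p = 0.837) were not called.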

How the data were processed

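The authors deposited, for each liver, a table of raw counts by Ensembl gene. The submitters' processing notes name HISAT2 2.0.4, HTSeq 0.6.1p1 and the GRCm38 build. Which annotation release, strand setting and read filters applied is not given in the sources used here, so counts of near-identical copies (Mup, Sult2a, Ugt) and of overlapping genes are uncertain. File names mark 4-week libraries as paired-end, those of later ages as single-end. Symbols came from the GENCODE M21 annotation, for 47224 of 47729 genes. Each comparison was fitted in R 4.3.3 with edgeR 4.0.16 (filterByExpr, TMM, quasi-likelihood F-test, prior count 0.125), with Benjamini-Hochberg adjustment over all genes tested and a threshold of 0.05. Each SE was worked back from the F statistic, as the absolute log2 change divided by its square root. DESeq2 1.42.0, other scalings, no filter, a replicate block and leaving out each library were alternatives. The fits were tested on simulated data. For all 6 KO against 4 WT the simulated spread was smaller than the fitted one, and the simulated KO livers were not split. No pair of the 6 libraries agreed within sampling noise (smallest chi-square per degree of freedom 13.2). The members and lists were chosen with earlier results of these data known. Named genes were Slc10a1, the urinary protein family, up to 12 higher and 12 lower genes of largest fold among those that stood apart (mean log2 CPM 1 or more), up to 2 apart from each list, and a set of defining genes; others were named after their values were seen.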

Additional observations from a re-analysis of the deposited data

Results flagged for a closer look

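In 11 of 70 genes checked, 1 WT liver of 8 weeks lay far from the other 3. The gap to its neighbour, as a share of the group's range, exceeded Dixon's critical value for 4 samples. Chance does so in about 1 of 20 genes picked without regard to their values. Many of the 70 genes were named by their fold against WT, which 1 far WT liver can enlarge. The count of 11 therefore cannot be set against that rate. WT replicate 1, the library with kidney transcripts, was the far one for Kcnj15 (0.996), Slc13a1 (0.965), Gcnt1 (0.963), Dnase1 (0.959), Kcnj16 (0.842) and Gbp11 (0.842). WT replicate 2 was far for Wdfy1 (0.948) and Mup10 (0.843), and WT replicate 4 for Igfbp1 (0.957), Arntl (0.887) and Cdkn1a (0.859).

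Among the genes named by the rule outside the urinary protein family, 9 had the Mup20-high KO livers of 8 weeks and the KO livers of 4 weeks on opposite sides of all WT livers of their age; the difference was not tested. In the 4-week contrast, the log2 change was -8.75 for Hsd3b5, -8.23 for Elovl3, -6.59 for Cyp4a12a, -2.47 for Sult2a8 and -1.79 for Oasl1, all higher in the 8-week pair. It was 4.26 for Atp6v0d2, 3.68 for Cux2, 3.58 for Igfbp1 and 1.19 for Tat, all lower in the pair. At 4 weeks Sult2a8 (adjusted p = 0.0553) and Tat (0.0816) were not called.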

How the results depend on the processing

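No named gene that was called or stood apart changed sign under the alternatives run. Without WT replicate 1 the median of the kidney markers (2 genes fitted) turned from -2.18 to 0.38 and that of the lymphocyte markers from -0.23 to 0.04. For the Mup20-high pair, the 312 genes that stood apart (81 higher, 231 lower) became 1144 (477 and 667) with no filter on low counts, 839 (253 and 586) at 1.5-fold and 33 (2 and 31) at 4-fold. Leaving out 1 library gave 288 to 985 in all, 70 to 174 higher and 218 to 846 lower; without KO replicate 3 there were 985 and without KO replicate 4 there were 665, where 1 KO liver alone has to lie outside WT. Over all 6 KO livers, the 4 calls became 110 with DESeq2, 69 by separate ranges and 2-fold (chosen after seeing the data), and 1 to 5 when 1 library was left out: 1 without WT replicate 1, WT replicate 3 or KO replicate 5, and 2 without WT replicate 2 or KO replicate 6. At 4 weeks, 1200 calls became 2048 with no filter and 184 to 2012 when 1 library was left out, the ends being without WT replicate 3 and without KO replicate 1; without WT replicate 2 there were 234, without KO replicate 3 429 and without WT replicate 1 689. At 20 months, 0 calls became 49 with DESeq2 and 0 to 71 when 1 library was left out, 71 without WT replicate 3. With the replicate number as a block, the calls were 0 at 8 weeks (Slc10a1 at -2.64, adjusted p = 0.112, and Tymp at 1.97, 0.703), 537 at 4 weeks and 0 at 20 months; same-numbered WT and KO livers deviated together with correlations of -0.37 to 0.05, -0.07 to 0.02 and 0.05 to 0.45, so the numbers are not taken as pairs. The cause of these shifts was not tested. With 2 KO livers, the depth limits genes under about 0.158 CPM, and the SE rests on few libraries.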
